A study of Mus musculus with 12 samples.

Results

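Regulators of G-protein signalling (RGS) were described here across 12 mouse hearts with and without apelin and with and without pressure overload. The members were 9 genes: Rgs2, Rgs3, Rgs4, Rgs5, Rgs6, Rgs10, Rgs14, Rgs16 and Rgs7bp, which encodes a partner of RGS proteins. They were found by gene symbol, as every probe set that the array annotation assigns to 1 gene and to one of these symbols, and each probe set of a gene was kept separate. This gave 25 probe sets of the 34945 with 1 gene, and 9 genes of 18193. The list itself was chosen by measured values: earlier results on these same arrays had shown differences for some of these genes, so the values are given as a description, and no p-value for a member is independent evidence of its direction.

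The 12 arrays form 4 groups, each of 3 biological replicates per the labels. Sham-operated and aortic-banded hearts were taken both from wild-type mice and from apelin knockout mice. Banding narrows the aorta and thereby loads the left ventricle with pressure, and the sham operation is its control. The knockout mice lack the apelin gene (Apln), which encodes a peptide that acts through a G-protein-coupled receptor on heart and vessels. Each array was made from total RNA of heart, on Affymetrix mouse expression arrays, and the study asked how hearts without apelin differ at rest and under load. The sources used here do not give the strain, age or sex, the deleted part of the gene, the time after the operation or whether the deletion was limited to a cell type.

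RGS proteins switch off G-protein signalling. A receptor activates a G alpha subunit by loading it with GTP, and an RGS protein speeds up the hydrolysis of that GTP, so that the signal ends sooner. Members of the R4 family, such as Rgs2, Rgs4, Rgs5 and Rgs16, are small proteins built of little more than this catalytic domain, and Rgs2 acts mainly on the Gq class that drives hypertrophic signalling in cardiomyocytes. Members of the R7 family, such as Rgs6, work bound to Gnb5, an unusual G beta subunit, and are anchored at the membrane by the protein that Rgs7bp encodes. Rgs10 and Rgs14 belong to the R12 family and act on the Gi class.

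Values are array intensities in arbitrary units, as the authors deposited them, and differences are on the scale of log2(value + 16), which understates changes of dim probe sets. A probe set passed when its adjusted p in limma was under 0.05, with the Benjamini-Hochberg adjustment over the 20967 probe sets tested. The tested probe sets were the brighter 60% by mean over the 12 arrays, with means of at least 36.2. Of the members, 18 probe sets of 8 genes were tested, and all 3 probe sets of Rgs16 and 1 each of Rgs2, Rgs3, Rgs6 and Rgs7bp were too dim. Intensities of different probe sets depend on their probes, so no level of one is set against another. RNA was taken from whole tissue, and fewer cells of a type cannot be told apart from less RNA per cell.

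The arrays had like distributions, with median intensities of 40.3 to 50.4 and correlations over the tested probe sets of 0.961 to 0.981 for arrays of 1 group and 0.943 to 0.978 for arrays of different groups. The targeted gene, Apln, measured 333, 323 and 212 in wild-type sham, 205, 223 and 255 in wild-type banded, 63.7, 111 and 85.4 in knockout sham and 271, 123 and 160 in knockout banded hearts. The library labelled knockout banded 1 therefore lay within the wild-type range of Apln, and the sources used here do not say whether the Apln probes lie inside the deleted part. The same library had a summed level of 5 lung marker genes of 1644, against 205 at most in any other array. That sum was carried by the airway genes Scgb1a1 (1094) and Scgb3a2 (410), while the surfactant genes Sftpb (54.3), Sftpc (49.2) and Sftpd (37.3) lay within the range of the other arrays. Its 3 measured adipocyte markers summed to 457. Wild-type banded 1 also had raised adipocyte markers (379), while the remaining 10 arrays reached 120 at most. Wild-type banded 3 had Xist at 1255, against 89.2 at most elsewhere. Markers of ventricular cardiomyocytes were present in every array, with sums over 8 genes of 65085 to 122258, while the sum of 5 atrial markers ran from 123 to 25243 and overlapped between all groups. Results that rest on knockout banded 1 are given with and without it.

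The sequence just before the transcription start of Rgs5, Rgs4, Rgs2 and Rgs7bp is shown because Rgs2, Rgs5 and Rgs7bp had the largest differences between groups, and Rgs4 is the direct neighbour of Rgs5 on chromosome 1. Each line gives the 250 bases upstream of the start, 5′ to 3′ on the strand of the gene, from RefSeq on GRCm38.p6. Rgs5 lies at chr1:169655251-169655500 on the plus strand, Rgs4 at chr1:169747643-169747892 on the minus strand, Rgs2 at chr1:144004150-144004399 on the minus strand and Rgs7bp at chr13:105054931-105055180 on the minus strand. Capitals mark the short promoter motifs that were searched on both strands: the CCAAT box (CCAAT or ATTGG), the core of the cAMP response element (TGACG or CGTCA), the TATA box (TATAAA or TTTATA) and the GC box (GGGCGG or CCGCCC).
Rgs5: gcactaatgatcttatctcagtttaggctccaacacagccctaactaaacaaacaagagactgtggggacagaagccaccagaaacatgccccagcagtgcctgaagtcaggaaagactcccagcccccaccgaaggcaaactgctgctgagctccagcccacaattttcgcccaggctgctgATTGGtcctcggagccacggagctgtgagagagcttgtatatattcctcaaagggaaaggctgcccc
Rgs4: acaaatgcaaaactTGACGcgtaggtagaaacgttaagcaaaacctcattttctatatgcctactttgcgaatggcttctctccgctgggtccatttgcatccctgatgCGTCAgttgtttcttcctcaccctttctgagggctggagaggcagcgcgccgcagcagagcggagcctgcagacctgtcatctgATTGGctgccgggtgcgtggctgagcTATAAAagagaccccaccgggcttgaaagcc
Rgs2: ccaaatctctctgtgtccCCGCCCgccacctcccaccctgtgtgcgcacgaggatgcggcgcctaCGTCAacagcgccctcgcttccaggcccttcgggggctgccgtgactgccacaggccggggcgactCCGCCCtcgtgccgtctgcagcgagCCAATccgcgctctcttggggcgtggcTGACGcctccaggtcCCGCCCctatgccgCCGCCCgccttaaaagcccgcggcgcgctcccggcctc
Rgs7bp: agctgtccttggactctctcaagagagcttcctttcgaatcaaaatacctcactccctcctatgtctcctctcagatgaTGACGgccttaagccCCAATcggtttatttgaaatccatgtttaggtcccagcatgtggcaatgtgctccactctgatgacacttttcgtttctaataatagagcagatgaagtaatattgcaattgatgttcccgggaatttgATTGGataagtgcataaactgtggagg
The start region was held for 8 of the 9 members, in 9 windows because Rgs3 has more than 1 start. A CCAAT box was present in 5 of these 9 windows (Rgs2, Rgs4, Rgs5, Rgs7bp and Rgs16) and in 33.8% of all 32851 windows of the same length. The cAMP response core was present in 3 windows (Rgs2, Rgs4 and Rgs7bp) and in 17.8% of all windows. The TATA box was present in 3 windows, those of Rgs4 and Rgs3, and in 12.4% of all windows, and the GC box in 4 windows and 32.7% of all windows. Rgs5 held a single match, the CCAAT box on the other strand 67 bases before the start, while Rgs4 held a TATA box 31 bases before its start and Rgs2 held 4 GC boxes. A match only says that these letters are present.

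The differences that passed the threshold belonged to Rgs5 and Rgs7bp, and Rgs2 was added when 1 library was left out. Rgs5, a marker of pericytes and vascular smooth muscle, was lower in knockout than in wild-type hearts in 1 of its 4 probe sets, by a log2 difference of -1.85. Rgs7bp was lower after banding in 1 of its 2 tested probe sets, by -0.76 averaged over the genotypes. The 3 tested probe sets of Rgs2 differed by -1.02 to -1.26 with banding in knockout hearts and did not pass on all 12 arrays. Rgs3, Rgs4, Rgs6, Rgs10 and Rgs14 had no difference that passed the threshold in any comparison.

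Banding in knockout hearts gave 2 lower member probe sets of 18 at an adjusted p under 0.05 and 0 higher, against 1.05% of all tested probe sets that passed as lower; these were Rgs5 1420940_x_at and Rgs7bp 1436876_at. Averaged over both genotypes, 1 of 18 was lower after banding (Rgs7bp 1436876_at), against 0.42% of all. In knockout against wild type, Rgs5 1420940_x_at was the 1 of 18 that passed, both among banded hearts, where 0.00954% of all tested probe sets passed as lower, and averaged over surgery, where 0.0191% did. Banding in wild type gave 0 of 18, as it did for all tested probe sets (0%), and 1 of 18 had an unadjusted p under 0.05, against 5.46% of all. Genotype among sham hearts gave 0 of 18, against 0.00477% of all, and 4 of 18 at an unadjusted p under 0.05, against 5.08%. The interaction, which tests whether banding acts differently in the genotypes, gave 0 of 18, against 0.00477% of all, and 3 of 18 at an unadjusted p under 0.05, against 8.67%. Several probe sets belong to 1 gene and the comparisons share arrays, so these counts are not independent of one another.

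**Figure D1:**
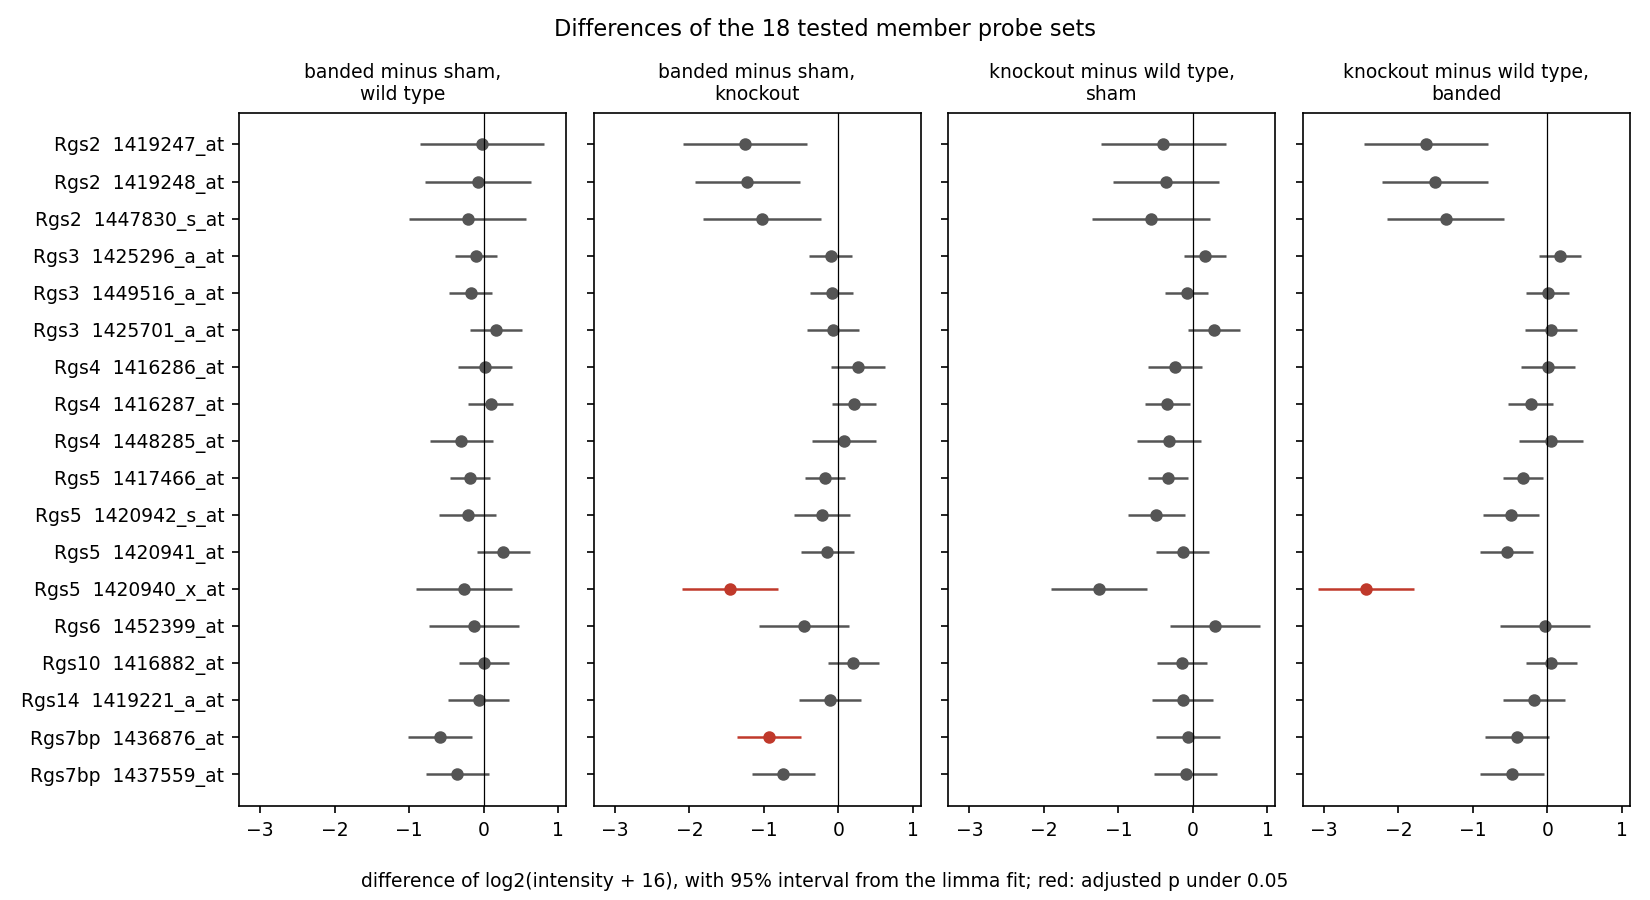
Log2 differences of the 18 tested member probe sets in the comparisons of banding and genotype, with bars for the 95% interval from the limma fit. The differences that stand farthest from 0 belong to Rgs5 1420940_x_at, down to -2.44 for genotype among banded hearts, and to the 3 probe sets of Rgs2.

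Rgs5 is the R4 member that pericytes and arterial smooth muscle cells express strongly, and it acts on Gi and Gq signals from vasoactive receptors. It is measured by 4 probe sets, of which 1420940_x_at, 1420941_at and 1420942_s_at cite the same GenBank entry in the annotation and 1417466_at cites another. The suffix x marks probes that may also bind other transcripts, and the suffix s marks probes shared by several transcripts.

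Rgs5 1420940_x_at measured 454, 703 and 897 in wild-type sham and 469, 474 and 733 in wild-type banded hearts. It measured 343, 153 and 359 in knockout sham and 79.0, 95.1 and 89.7 in knockout banded hearts. All 6 knockout arrays lay below all 6 wild-type arrays, and all 3 knockout banded arrays lay below all 3 knockout sham arrays, while the wild-type groups overlapped. The means were 685 ± 222, 559 ± 151, 285 ± 115 and 87.9 ± 8.20 (SD, n = 3) for sham and banded wild-type and then sham and banded knockout hearts. In the limma fit, knockout was lower than wild type by a log2 difference of -1.85 (SE 0.21) averaged over surgery, with an adjusted p of 0.00602. This difference kept an adjusted p of 0.00314 to 0.0301 under every alternative setting in which it was fitted, including those that leave out 1 array each. Among banded hearts the genotype difference was -2.44 (SE 0.30, adjusted p = 0.0385), and among sham hearts it was -1.25 (SE 0.30, adjusted p = 0.912). Banding in knockout hearts gave -1.45 (SE 0.30, adjusted p = 0.0295), and banding in wild-type hearts gave -0.26 (adjusted p = 0.968). The difference between these banding effects was -1.19 (SE 0.42) and did not pass (limma interaction, adjusted p = 0.480).

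The calls for Rgs5 1420940_x_at within knockout and within banded hearts were each lost when any 1 of several arrays was left out. The banding call in knockout was lost without knockout sham 1 (adjusted p = 0.0989), knockout sham 3 (0.110), knockout banded 2 (0.116) or knockout banded 3 (0.123), in the limma fit. The genotype call among banded hearts was lost without wild-type sham 2 (adjusted p = 0.0767), wild-type banded 1 (0.0750), 2 (0.117) or 3 (0.153), knockout sham 1 (0.0578), or knockout banded 2 (0.111) or 3 (0.182). Without knockout banded 1, the library that stood apart, both calls held, at adjusted p-values of 0.0229 and 0.00294. The differences themselves stayed between -1.82 and -1.25 for banding in knockout and between -2.55 and -2.23 for genotype among banded hearts when 1 array was left out.

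The other 3 probe sets of Rgs5 also had lower means in knockout hearts, with log2 differences of -0.33 to -0.49 averaged over surgery, and none passed. Rgs5 1417466_at measured 6250, 4895 and 6128 in wild-type sham, 4921, 4694 and 5470 in wild-type banded, 4715, 3989 and 4944 in knockout sham and 3924, 4152 and 3896 in knockout banded hearts. The knockout banded arrays all lay below the wild-type banded arrays, while the sham groups overlapped. Its mean was 5393 ± 669 in wild-type and 4270 ± 448 in knockout hearts (SD, n = 6), which differ by -0.33 on the log2 scale (SE 0.09, limma adjusted p = 0.348). Banding gave -0.19 in wild type and -0.18 in knockout, so the 4 group means were highest in sham, then banded wild-type, then sham and then banded knockout hearts, and the arrays of neighbours in that order overlapped.

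Rgs5 1420942_s_at measured 2652, 2035 and 2885 in wild-type sham, 1909, 2088 and 2473 in wild-type banded, 1801, 1628 and 1906 in knockout sham and 1229, 1984 and 1438 in knockout banded hearts. The knockout sham arrays all lay below the wild-type sham arrays, while knockout banded 2 lay within the wild-type banded range. The log2 difference by genotype was -0.49 (SE 0.12, limma adjusted p = 0.338). Rgs5 1420941_at measured 2056, 1776 and 1837 in wild-type sham, 2585, 2387 and 1878 in wild-type banded, 1459, 2276 and 1510 in knockout sham and 1675, 1478 and 1477 in knockout banded hearts. It was the only Rgs5 probe set whose mean was higher in banded than in sham wild-type hearts (2283 ± 365 against 1890 ± 147, SD, n = 3), and knockout banded lay below wild-type banded in all 3 arrays. That genotype difference was -0.55 (SE 0.16, limma adjusted p = 0.185).

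**Figure D2:**
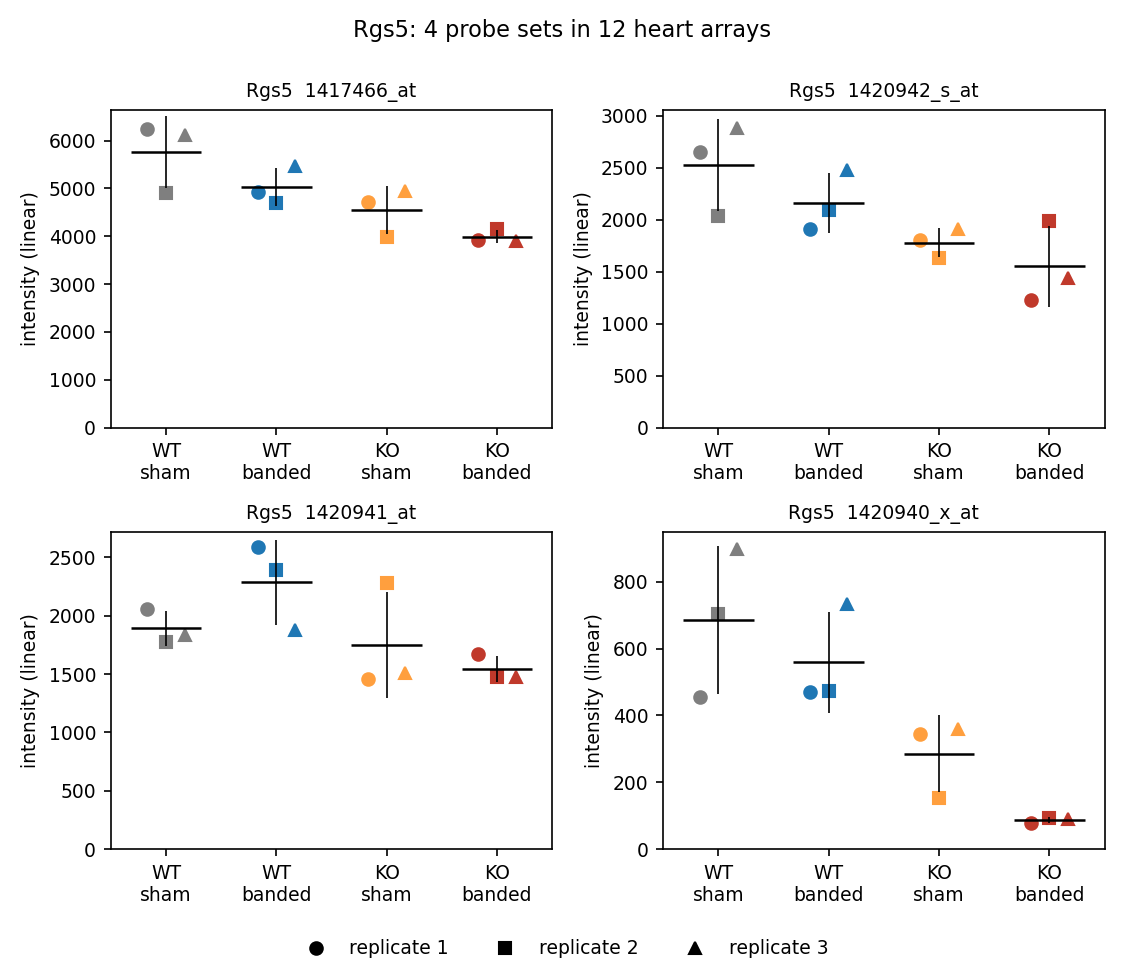
Intensity of the 4 Rgs5 probe sets in each of the 12 arrays, 1 point per array, with the group mean as a line. The knockout arrays of 1420940_x_at lie below every wild-type array and reach 79.0 to 95.1 in knockout banded hearts, while the 3 other probe sets differ by far less.

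The probe sets of Rgs5 thus differed unequally within the same arrays. The log2 value of 1420940_x_at minus the mean log2 value of the other 3 was set to 0 at the wild-type sham mean. On that scale wild-type arrays ran from -0.64 to 0.34, knockout sham arrays were at -0.54, -1.72 and -0.54, and knockout banded arrays were at -2.26, -2.23 and -2.11. The knockout banded arrays lay below all others, and 2 of the 3 knockout sham arrays lay within the wild-type range. The probe sequences were not used here, so what each probe set binds was not examined.

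Other measures were set beside these groups, and only some of them differed between groups without overlap. The summed level of 8 pericyte markers (Pdgfrb, Cspg4, Abcc9, Kcnj8, Notch3, Vtn, Ndufa4l2 and Higd1b) was 4647 to 5356 in wild-type sham, 3780 to 4886 in wild-type banded, 5015 to 5086 in knockout sham and 3302 to 4480 in knockout banded hearts. It was therefore lower after banding in knockout with no overlap, and knockout sham lay within the wild-type sham range. Of 14 tested pericyte probe sets, 3 were called lower for banding in knockout, against 1.05% of all, and all 3 belong to Abcc9, a subunit of ATP-sensitive potassium channels and the largest part of that sum. Abcc9 measured 3136 to 3337 in knockout sham and 1573 to 2494 in knockout banded hearts. Which cell types its RNA came from was not examined, so its fall and that of the sum are no measure of pericytes alone. The other pericyte markers did not share 1 order. Cspg4, Notch3, Vtn, Kcnj8 and Ndufa4l2 overlapped between knockout sham and knockout banded hearts. Pdgfrb and Higd1b were higher after banding in knockout with no overlap, as were 11.3% of all tested probe sets. Pdgfrb measured 346 to 391 in knockout sham and 404 to 465 in knockout banded hearts. Higd1b measured 105 to 137 in wild-type sham, 89.0 to 118 in wild-type banded, 67.2 to 89.8 in knockout sham and 102 to 126 in knockout banded hearts. Vtn measured 217 to 273, 170 to 224, 165 to 220 and 140 to 214 in the same order of groups, and Kcnj8 measured 372 to 504, 299 to 350, 314 to 388 and 233 to 352. Smooth muscle markers summed to 1532 to 4144 in wild-type and 1767 to 3766 in knockout hearts, a sum led by Acta2, and none of the 4 tested probe sets was called in any comparison. Among them Myh11, the smooth muscle myosin heavy chain, measured 89.4 to 143 in the 6 wild-type arrays and 56.7 to 83.9 in the 6 knockout arrays, which did not overlap. Such a separation was found in 0.277% of all tested probe sets, and the log2 difference of Myh11 was -0.58 (SE 0.13, limma adjusted p = 0.300). RNA quality, read as the Actb control probes of the 3' end over those of the 5' end on the log2 scale, was -0.22 to -0.17 in knockout banded and -0.09 to 0.30 in all other arrays. The same ratio for Gapdh overlapped, at -0.35 to -0.32 in knockout banded and -0.39 to -0.33 in the other arrays. The part of these measures in the Rgs5 values was not tested, and no marker was at 0. Of 14 tested fibroblast probe sets, 2 were called higher for banding in knockout (against 1.34% of all) and 1 averaged over genotype (against 0.692%), all of Col1a1, a collagen chain. No tested probe set of the endothelium, macrophage, lymphocyte, neutrophil, platelet, atrial, adipocyte or lung marker lists was called in any comparison.

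Rgs4, which lies beside Rgs5 on chromosome 1 and acts on Gi and Gq signals in heart and brain, did not share the separation of genotypes seen in 1420940_x_at. Rgs4 1416286_at measured 153, 152 and 117 in wild-type sham, 156, 119 and 150 in wild-type banded, 99.4, 128 and 121 in knockout sham and 179, 137 and 114 in knockout banded hearts. All 4 groups overlapped with a neighbour. Rgs4 1416287_at measured 155, 120 and 106, then 132, 124 and 149, then 90.3, 102 and 94.0, and then 109, 124 and 107 in the same order of groups. Knockout sham lay below wild-type sham (-0.34, SE 0.14, limma adjusted p = 0.961) and below knockout banded (0.21 with banding, adjusted p = 0.448), with no overlap in either case. Rgs4 1448285_at was dimmer, at 31.3 to 64, and its knockout sham arrays also lay below its wild-type sham arrays (-0.32). In knockout against wild type averaged over surgery, the 3 probe sets differed by -0.12, -0.29 and -0.14.

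Rgs2 is the R4 member that restrains Gq signals in cardiomyocytes and in resistance vessels, where nitric oxide signalling activates it. Rgs2 1419247_at measured 334, 723 and 1001 in wild-type sham, 571, 522 and 784 in wild-type banded, 444, 620 and 379 in knockout sham and 351, 138 and 133 in knockout banded hearts. The knockout banded arrays were below all wild-type banded and all knockout sham arrays, and the 3 other groups overlapped. Within knockout banded, the library labelled knockout banded 1 was the high one, above the lowest wild-type sham array. Group means were 686 ± 335, 626 ± 139, 481 ± 125 and 208 ± 125 (SD, n = 3).

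The second probe set, Rgs2 1419248_at, measured 239, 414 and 612 in wild-type sham, 345, 329 and 454 in wild-type banded, 325, 314 and 271 in knockout sham and 214, 106 and 74.7 in knockout banded hearts. Here every knockout banded array was below all 9 others. Rgs2 1447830_s_at measured 172, 366 and 548 in wild-type sham, 274, 252 and 315 in wild-type banded, 220, 256 and 178 in knockout sham and 183, 76.2 and 65.3 in knockout banded hearts. It repeated the order, except that knockout banded 1 lay inside the knockout sham range and above wild-type sham 1. The remaining probe set, 1443250_at, was too dim to test, at 4.47 to 58.0.

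None of the 3 tested Rgs2 probe sets passed on all 12 arrays. Banding in knockout gave log2 differences of -1.26 (SE 0.39), -1.22 (SE 0.33) and -1.02 (SE 0.37), with limma adjusted p-values of 0.0997, 0.0661 and 0.152 in the order of the probe sets above. Banding in wild type gave -0.02 for the first. Over all settings it ran from -0.46 to 0.31, -0.42 to 0.23 and -0.65 to 0.14 in the same order. Among banded hearts, knockout was lower by -1.63 (SE 0.39), -1.51 (SE 0.33) and -1.37 (SE 0.37), with adjusted p-values of 0.124, 0.106 and 0.160. The interaction of the first was -1.24 (SE 0.55, adjusted p = 0.557) and of the second -1.14 (adjusted p = 0.535). Over all settings the interaction ran from -1.66 to -0.80, -1.52 to -0.80 and -1.20 to -0.37, nearest to 0 in the third.

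The Rgs2 calls depended on 1 library. Without knockout banded 1, all 3 Rgs2 probe sets passed for banding in knockout, at -1.68, -1.60 and -1.42 (limma adjusted p = 0.00972, 0.00442 and 0.0180), and for genotype among banded hearts, at -2.06, -1.88 and -1.77 (adjusted p = 0.00714, 0.00411 and 0.0113). Rgs2 1419248_at also passed for banding in knockout without wild-type sham 1 (adjusted p = 0.0453). The 2 remaining knockout banded arrays are then assumed to vary like the other groups. That library stood apart in Apln and in lung and adipocyte markers, and the part of those tissues in its Rgs2 level was not tested. The sum of the ventricular cardiomyocyte markers was 65085 to 66388 in knockout banded hearts and 78236 to 86087 in knockout sham hearts. It was 65185 to 122258 in wild-type sham and 73808 to 91705 in wild-type banded hearts. The highest intensity on the array differed likewise, at 10813 to 11291 in knockout banded and 12544 to 14746 in knockout sham hearts. It was 10231 in wild-type sham 2, which had the lowest wild-type sum, and 21832 in wild-type sham 3, which had the highest. Of 14 probe sets of that list, 2 were called lower for banding in knockout (against 1.05% of all), both of Ryr2. The part of these measures in the Rgs2 values was not tested either.

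**Figure D3:**
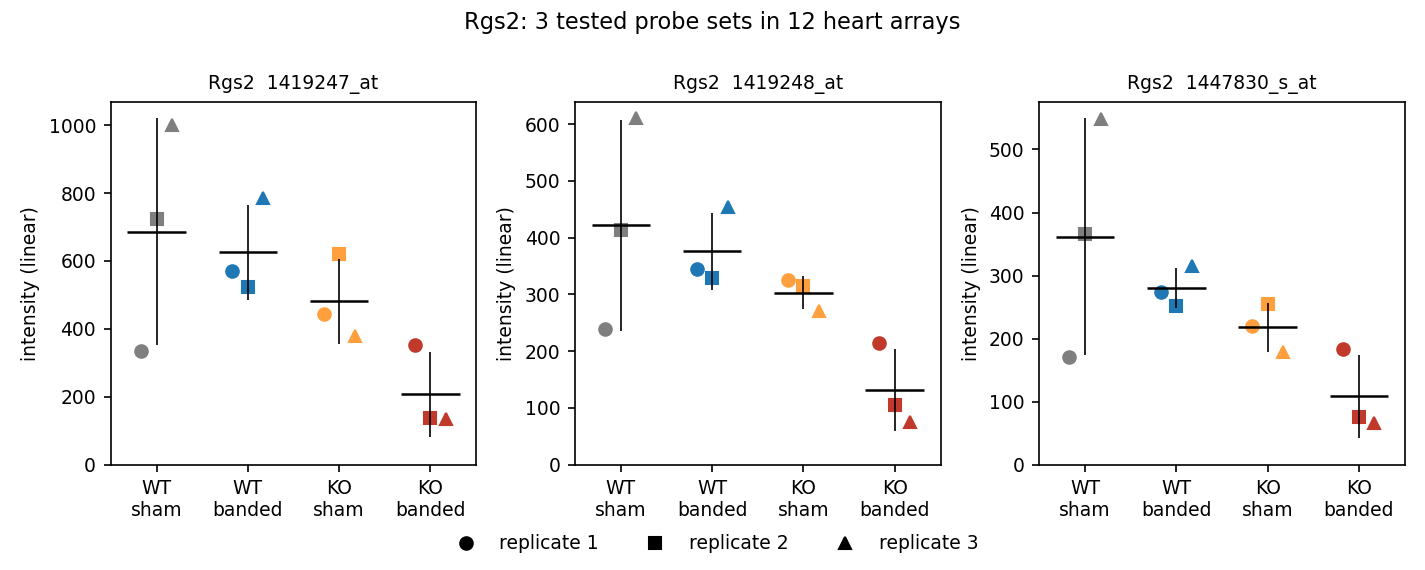
Intensity of the 3 tested Rgs2 probe sets in each array, 1 point per array, with the group mean as a line. Knockout banded 2 and 3 are the lowest arrays in each probe set, at 65.3 to 138, and knockout banded 1 lies between them and the other groups or among them.

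Leaving out knockout banded 1 also moved the whole set of calls. For banding in knockout, 6 of 18 member probe sets were then lower (3 of Rgs2, 2 of Rgs7bp and Rgs5 1420940_x_at), against 4.96% of all tested probe sets. For banding averaged over genotype 6 of 18 were lower, against 3.47%. For genotype among banded hearts 4 of 18 were lower (3 of Rgs2 and Rgs5 1420940_x_at), against 2.54%, and averaged over surgery 4 of 18, against 0.453%.

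On all 12 arrays, the members were also counted by whether the arrays of the groups overlap. In knockout, 5 of 18 member probe sets had all banded arrays below all sham arrays, as did 12.8% of all tested probe sets. In wild type 1 of 18 did (Rgs7bp 1436876_at), against 5.94%. Knockout lay below wild type without overlap in 4 of 18 among sham hearts, against 6.04%, in 7 of 18 among banded hearts, against 9.99%, and in 1 of 18 over all 6 against 6 arrays, against 0.277%. The 7 among banded hearts were 3 probe sets of Rgs2, 3 of Rgs5 and 1 of Rgs7bp.

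Rgs7bp encodes the palmitoylated protein that holds R7 family complexes at the plasma membrane, chiefly described in neurons. Rgs7bp 1436876_at measured 102, 143 and 132 in wild-type sham, 80.2, 58.3 and 99.0 in wild-type banded, 98, 131 and 130 in knockout sham and 69.9, 55.4 and 41.8 in knockout banded hearts. In each genotype every banded array was below every sham array, and the sham groups overlapped with each other, as did the banded groups. Means were 126 ± 21.3 and 79.2 ± 20.4 in wild-type sham and banded hearts, and 120 ± 18.9 and 55.7 ± 14.1 in knockout sham and banded hearts (SD, n = 3). The log2 difference with banding was -0.59 (SE 0.20, limma adjusted p = 0.859) in wild type, -0.93 (SE 0.20, adjusted p = 0.0334) in knockout and -0.76 (SE 0.14, adjusted p = 0.0312) averaged over both. The difference between these banding effects was -0.34 (SE 0.28) and did not pass (limma interaction, adjusted p = 0.760). Genotype gave -0.06 in sham and -0.40 in banded hearts (adjusted p = 0.390).

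The Rgs7bp calls were close to the threshold. In limma, the banding call in knockout was lost without knockout sham 1 (adjusted p = 0.0604), 2 (0.118) or 3 (0.116), or knockout banded 2 (0.136) or 3 (0.147). Averaged over genotype, the call was lost without wild-type sham 2 (adjusted p = 0.0746) or 3 (0.0661), wild-type banded 1 (0.0673) or 2 (0.0808), knockout sham 2 (0.0763) or 3 (0.0808), or knockout banded 2 (0.0827) or 3 (0.0795). Without knockout banded 1 the adjusted p-values were 0.00728 and 0.00447.

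A second Rgs7bp probe set, 1437559_at, measured 81.5, 93.0 and 70.6 in wild-type sham, 51.7, 51.4 and 80.4 in wild-type banded, 58.7, 83.0 and 86.2 in knockout sham and 43.1, 28.9 and 45.5 in knockout banded hearts. Knockout banded was below all 9 other arrays, and the wild-type groups overlapped through wild-type banded 3. Banding gave -0.74 (SE 0.20, limma adjusted p = 0.0646) in knockout, -0.35 in wild type and -0.55 (adjusted p = 0.0792) averaged over both. The third, 1458534_at, was too dim to test, at 15.0 to 44.8. The summed level of 4 nerve and glia markers was 313 to 434 in wild-type sham, 324 to 380 in wild-type banded, 375 to 440 in knockout sham and 239 to 295 in knockout banded hearts, lowest in knockout banded with no overlap. None of the 6 tested probe sets of that list was called, and its part in the Rgs7bp values was not tested.

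**Figure D4:**
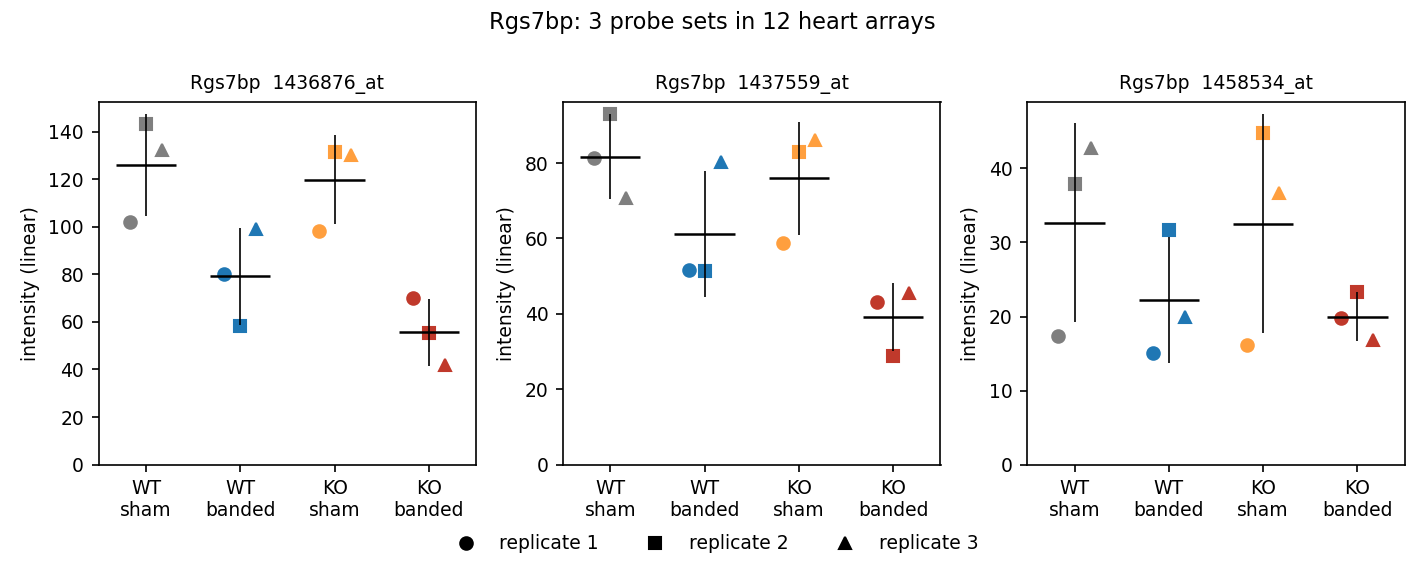
Intensity of the 3 Rgs7bp probe sets in each array, 1 point per array, with the group mean as a line. In 1436876_at every banded array lies below every sham array of its genotype, and in 1437559_at the 3 knockout banded arrays, at 28.9 to 45.5, are the lowest of all.

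Rgs6 is the R7 member that Rgs7bp can anchor and that damps muscarinic slowing of the heart rate in atrial and sinoatrial cells. Rgs6 1452399_at measured 51.4, 40.2 and 39.6 in wild-type sham, 45.7, 40.2 and 30.3 in wild-type banded, 34.4, 62.5 and 83.1 in knockout sham and 42.5, 56.5 and 19.6 in knockout banded hearts. The highest and the lowest value were both in knockout hearts, and every pair of groups overlapped. Banding in knockout gave -0.46 (limma adjusted p = 0.406). Its other probe set, 1427340_at, was too dim to test, at 16 to 54.9. Gnb5, the partner of R7 proteins, measured 307 to 428 in 1422208_a_at, with log2 differences of -0.08 to 0.11.

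The remaining members varied little between groups. Rgs3, an R4 member with longer isoforms, measured 225 to 338 in 1425296_a_at, 134 to 188 in 1449516_a_at and 64.4 to 120 in 1425701_a_at, and its remaining probe set, at 16.1 to 43.9, was too dim to test. Rgs10, a short R12 member best known in immune cells, measured 144 to 218 in 1416882_at. Macrophage markers summed to 1662 to 2322 over the 12 arrays. Rgs14, an R12 member that also binds Ras-like proteins and inactive Gi, measured 85.2 to 155 in 1419221_a_at. The groups of the tested probe sets of these 3 genes overlapped in every comparison, and none passed in limma.

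Rgs16, an R4 member that is induced by inflammatory and metabolic signals, was dim in all arrays. Rgs16 1451452_a_at measured 23.8, 24.4 and 29.2 in wild-type sham, 19.1, 30.6 and 9.77 in wild-type banded, 7.05, 13.1 and 21.8 in knockout sham and 24.8, 40.9 and 34.5 in knockout banded hearts. Knockout banded lay above knockout sham in all 3 arrays, a separation found in 11.3% of all tested probe sets. The probe set was below the filter and not in the main test. In the fit without the filter its banding difference in knockout was 0.74 and did not pass. The other probe sets measured 3.53 to 51.4 (1455265_a_at) and 1.05 to 14.4 (1426037_a_at).

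**Figure D5:**
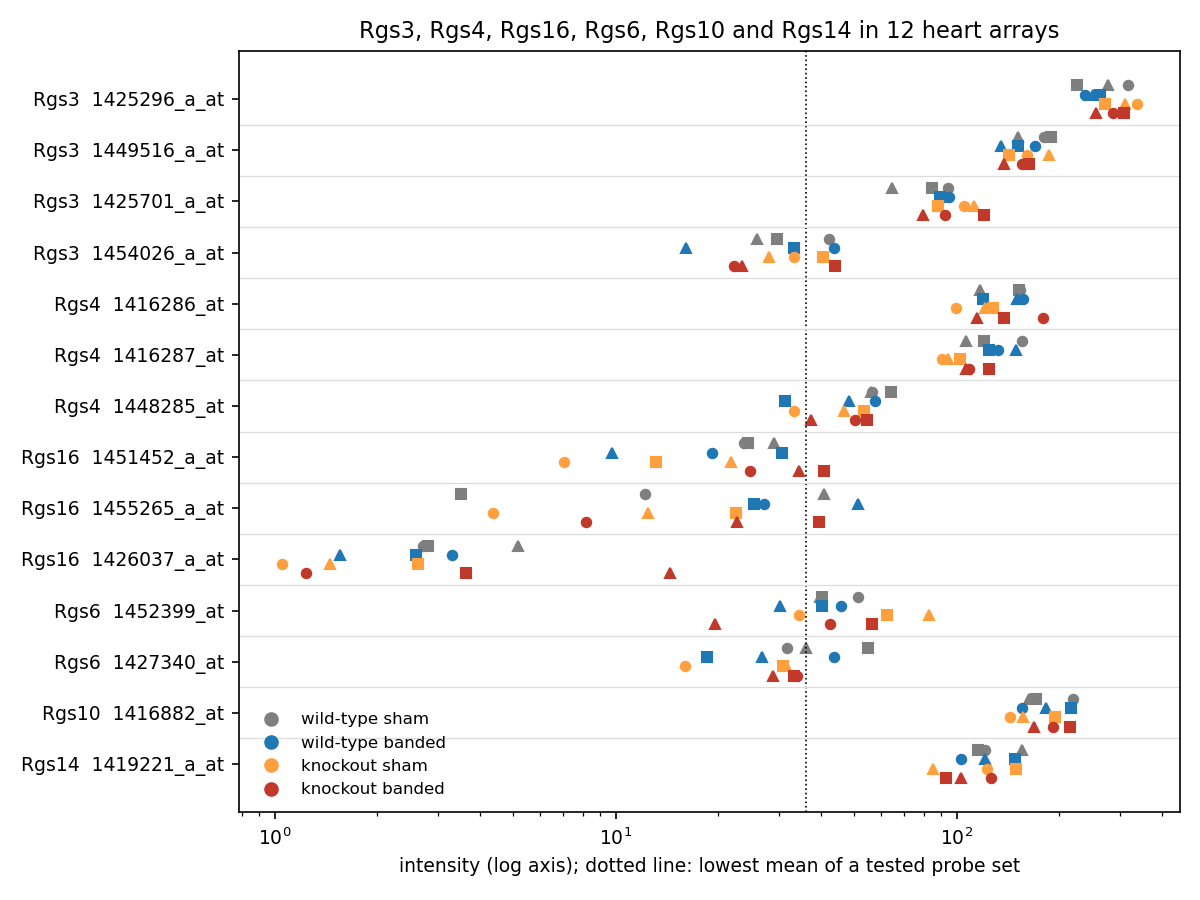
Intensity of the probe sets of Rgs3, Rgs4, Rgs6, Rgs10, Rgs14 and Rgs16 that show each gene, 1 point per array, by group. The groups of Rgs3, Rgs10 and Rgs14 overlap, and levels of different probe sets are not comparable.

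The rest of the G-protein cycle was read from 6 lists: the other RGS genes, RGS partners and RGS-like proteins, G alpha subunits, G beta and gamma subunits, receptor kinases with arrestins, and other G-protein modulators. Of the 86 tested probe sets of 42 genes, limma called 0 higher and 0 lower in each of the 7 comparisons on all 12 arrays. At an unadjusted p under 0.05, 12 were higher and 5 lower with banding in knockout, where 18.8% of all tested probe sets had such a p, and 1 higher and 5 lower with banding in wild type, against 5.46% of all. Between genotypes 8 were higher and 3 lower among banded hearts, against 13.7% of all, and 3 higher and 5 lower among sham hearts, against 5.08%. The interaction gave 10 higher and 2 lower, against 8.67%. Without knockout banded 1, banding in knockout gave 5 higher and 3 lower of the 86, where 5.2% of all tested probe sets were called higher and 4.96% lower, so the lists were called about as often as other probe sets. Higher were both tested probe sets of Grk5, a receptor kinase (1.21 and 0.80), Arrb1, an arrestin (0.84), Gng11, a G gamma subunit (0.75), and Gna13, a G alpha subunit (0.47). Lower were 2 probe sets of Gpsm1, which holds Gi in its inactive form (-0.72 each), and Rgs9, another R7 member (-1.01). The other tested probe sets of Gna13, Gpsm1 and Rgs9 were not called. Banding averaged over genotype then gave 3 higher (Grk5, Arrb1 and Gna13), against 3.79% of all. It gave 2 lower, the receptor kinase Grk3 (-0.45) and the G alpha subunit Gnai1 (-0.49), against 3.47%. Grk5, Gna13, Grk3 and Gnai1 each had other tested probe sets that were not called there. Genotype among banded hearts gave 2 higher, both of Grk5 (0.90 and 0.80), against 2.53%. It gave 1 lower, of Gpsm1 (-0.59), against 2.54%. The interaction gave 0 higher and 1 lower, of Gpsm1 (-0.88, limma adjusted p = 0.0472), against 0.653% lower of all.

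Arrb1, Rgs9 and Grk5 came nearest to the threshold on all arrays (limma adjusted p = 0.0510, 0.0529 and 0.0529 for banding in knockout), and Rgs9 and Grk5 are given by array, a choice made after their values were seen. Rgs9 1418691_at measured 102, 150 and 83.0 in wild-type sham, 89.6, 120 and 156 in wild-type banded, 281, 168 and 189 in knockout sham and 116, 88.7 and 101 in knockout banded hearts. Knockout sham was above every other array, by 0.84 over wild-type sham (limma adjusted p = 0.961), and banding in knockout gave -0.93 (SE 0.23, adjusted p = 0.0529). The other tested Rgs9 probe set, 1426033_at, did not pass in any comparison. Grk5 1449514_at measured 428, 398 and 318 in wild-type sham, 493, 414 and 465 in wild-type banded, 353, 514 and 263 in knockout sham and 497, 904 and 824 in knockout banded hearts. Knockout banded 1 overlapped with knockout sham and the other two knockout banded arrays lay above all others (0.95, adjusted p = 0.0529).

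Across the 12 arrays, the tested probe sets most alike to each member were found by Pearson correlation of log2 values over n = 12 arrays. These arrays share libraries and groups, so the values are a description. Rgs5 1420940_x_at was most like Pcp4l1 (r = 0.95), a gene also on chromosome 1, Sik2 (0.94) and Cpsf2 (0.93), and Rgs5 1417466_at was most like Cpsf2 (0.90), Banf1 (0.87) and S1pr3 (0.87). Rgs5 1420942_s_at was most like Api5 (0.94), and 1420941_at most like Prkd3 and Fam114a2 (0.91 each). Rgs2 was most like Tbc1d10c (0.97), Kcnd2 (0.96) and Mfsd13a (0.96). Rgs7bp was most like Tomm40l, Pla2g5 and Mrgprh (0.96 each), and Rgs4 most like Rasgrp3 (0.92). Rgs6 was most like Zfp521 (0.92), Rgs10 most like Map4k5 (0.91), Rgs14 most like Gtf2i and Ric1 (0.88 each) and Rgs3 most like Zbtb14, Hnrnpk and Polb (0.86 each). None of these alike genes is another RGS gene.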

How the data were processed

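Total RNA from 12 mouse hearts was extracted with Trizol, labelled with biotin and measured on Affymetrix arrays, per the labels' protocols. The values deposited by the authors are linear intensities, 1 per probe set and array. The sources used here do not name the software or the scaling. All arrays shared a trimmed mean of 150 (2% trimmed at each end) and were not scaled again.

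Of 45101 probe sets, 64 controls, 932 with several genes and 9160 without a listed gene were left out. The brighter 60% of the rest by mean were tested on log2(value + 16) in limma 3.58.1 (R 4.3.3), in 1 model of 4 group means with 8 residual degrees of freedom, eBayes with a variance trend, two-sided tests and Benjamini-Hochberg adjustment across all 20967 probe sets. The 7 contrasts were banding and genotype within each level of the other factor and averaged, and their interaction. SEs are from the fit, and p-values measure the spread between these samples. The procedure was tested on simulated data.

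The members, the lists and the alternatives were chosen with earlier results of these data known. All members are named. Other listed genes of the G-protein cycle were to be named where they passed on all 12 arrays, which none did, with Gnb5 always included; those named otherwise were chosen after their values were seen, and alike genes are the 3 with the highest Pearson correlation. The alternatives were the filter, pseudocounts of 1 and 64, quantile and median scaling, no variance trend, array weights, 1 probe set per gene, the replicate block, fits of only the groups compared, and arrays left out. Promoter windows came from RefSeq on GRCm38.p6. The number of arrays limits the precision.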

Additional observations from a re-analysis of the deposited data

How the results depend on the processing

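Of 158 refits of the counts of called member probe sets under 23 alternative settings, 117 stayed within 1.5 times the value on all arrays and 41 did not. Counts for banding in wild type, genotype among sham hearts and the interaction stayed at 0 in every setting. Their refits are all among the 117, and the 41 that moved all belong to the comparisons with a call. The 20 member differences that passed in at least 1 setting were also followed singly. No setting reversed any of these 20, but passing was how they were chosen. Of their 436 refits, 363 kept their side of the threshold, 34 fell short of it and 39 newly passed it. Other tested member differences did change sign between settings, such as Rgs2 1419247_at with banding in wild type (-0.46 to 0.31). For banding in knockout, the count of 2 became 0 with no filter, 6 with array weights, 1 with 1 probe set per gene, 0 with only the 2 groups compared and 6 with knockout banded 1 and wild-type banded 3 both left out. For banding averaged over genotype, the count of 1 became 0 with no filter, 4 with array weights and 5 without both arrays. For genotype among banded hearts, the count of 1 became 0 with no filter, with quantile normalization, without the variance trend and with 1 probe set per gene, and 4 with array weights or without both arrays. For genotype averaged over surgery, the count of 1 became 0 with 1 probe set per gene, because Rgs5 1420940_x_at is not the brightest Rgs5 probe set. Leaving out 1 array gave counts of 0 to 6 for banding in knockout and averaged over genotype, of 0 to 4 for genotype among banded hearts and of 1 to 4 for genotype averaged over surgery, the highest always without knockout banded 1. The causes were not tested, other than for 1 probe set per gene. In the other G-protein lists, array weights called 8 of 86 probe sets higher and 4 lower for banding in knockout, where they called 13.2% of all tested probe sets. Samples with the same replicate number did not deviate together, with correlations of -0.21 to 0.22 over 18 pairs and 2 pairs over 0.1, so the numbers were not taken as a pairing. With the replicate block the counts were 1 for banding in knockout (Rgs5 1420940_x_at), 0 for banding averaged over genotype, and 1 for genotype among banded hearts and averaged over surgery. Probe sets near the lowest tested mean, and all of Rgs16, are limited by their dim signal.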
